A study of Mus musculus with 12 samples.

Results

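Chemokines and their receptors were followed in cultures of neonatal mouse cardiac fibroblasts that received *Sox17*-*Erg* or control retroviruses. The genes were chosen by name alone, as those whose symbol is *Ccl*, *Cxcl*, *Ccr*, *Cxcr* or *Ackr* followed by a number, together with *Cx3cl1* and *Cx3cr1*. Of 57 rows with such a name, 43 had at least 10 counts summed over the 12 libraries and were kept, out of 35727 rows in the table. They comprised 28 ligands, 12 signaling receptors and 3 atypical receptors. The other 14 had between 0 and 9 counts in total and included *Ccr7*, *Cxcr3*, *Ackr2*, *Ccl11* and *Ccl22*.

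Chemokines are small secreted proteins that guide migrating leukocytes, and several also act on endothelial cells, smooth muscle and stromal cells. Most signaling receptors couple to inhibitory G proteins, while atypical receptors bind chemokines without that coupling and remove them from the surroundings. In vessels and in the heart the system is best known for leukocyte recruitment, for the positioning of hematopoietic cells and for the patterning of arteries through CXCL12.

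The cells were isolated from pooled hearts of newborn mice, selected for THY1 after depletion of PECAM1-positive cells in the described protocol, infected with pMX retroviruses and cultured in EGM2 medium. Control cultures carry the label PMX, and the *Sox17*-*Erg* cultures carry SE. RNA was collected at Day 3, Day 7 and 4 weeks, with 2 libraries per group and 6 groups. The labels give no strain, sex or genotype, and the study's methods name C57BL/6J mice and a *Tcf21* reporter cross as sources without saying which was used here. The labels do not say whether the 2 libraries of a group came from separate isolations, so p-values measure the spread between these libraries, which may be technical. *Sox17* was at 0 to 0.416 CPM (counts scaled to a common library size) in the control libraries and at 432 to 1036 CPM in the *Sox17*-*Erg* libraries, and *Erg* was at 0.0728 to 2.27 CPM and 17.1 to 65.2 CPM. The values include both the retroviral and the endogenous copies, which the counts do not separate. CPM are scaled throughout with TMM factors, which correct each library's size for its composition. The summed level of 10 fibroblast markers was between 12820 and 42010 CPM in every library, with *Col1a1* alone at 3722 to 19230 CPM. Treatments overlapped in this sum at Day 3 and Day 7. At 4 weeks it was 20230 and 16650 CPM in control and 12820 and 13440 CPM in *Sox17*-*Erg*. Single markers differed between treatments. At Day 3, 0 of the 10 were higher and 1 was lower with *Sox17*-*Erg* (*Tcf21*), at Day 7 1 was higher (*Postn*) and 3 were lower (*Dcn*, *Pdgfra* and *Lum*), and at 4 weeks *Tcf21* was lower besides these. *Dcn* was at 2855 and 2350 CPM in control and 224 and 301 CPM in *Sox17*-*Erg* at 4 weeks. The summed level of 10 endothelial markers was 146 to 382 CPM in control and 384 to 887 CPM in *Sox17*-*Erg* samples. Leukocyte markers were present too, and their values stand beside the genes they touch below. Library totals were 19011635 to 41240449 counts, of which the 43 genes took 0.0196% to 0.0652%.

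Sequences before the annotated start are shown for 6 genes with called differences: *Cx3cl1* and its neighbor *Ccl17*, both higher with *Sox17*-*Erg*, *Cxcl12* with its receptors *Cxcr4* and *Ackr3*, and *Cxcl13*. RefSeq windows of 300 bases (250 before and 50 after the start, GRCm38.p6) were found for 33 of the 43 genes. Capitals mark matches on either strand to short letters that stand for 5 kinds of motif. The SOX letters were AACAAT. ETS sites were searched as AGGAAG, which is the core bound by ERG and its relatives. The interferon response letters were TTCNNTTTC, and NF-kB sites were searched as GGANTTTCC. A TATA box was taken as TATAAA, and letters of different motifs could overlap. The 250 bases before the start are printed 5′ to 3′ on the gene's strand, except for *Cx3cl1*. There 30 bases around the ETS match are given, because a GENCODE exon of the gene overlaps the window. They lie inside this exon, as GENCODE places a start of the gene further upstream than RefSeq does. The *Ackr4* window is not printed, since it lies inside exons of *Ackr4* and *Acad11*, and *Ccl2* had no window.
*Cx3cl1*, chr8:94772101-94772130, plus strand: cagctacaggctCTTCCTctcccctcccac
*Ccl17*, chr8:94810203-94810452, plus strand: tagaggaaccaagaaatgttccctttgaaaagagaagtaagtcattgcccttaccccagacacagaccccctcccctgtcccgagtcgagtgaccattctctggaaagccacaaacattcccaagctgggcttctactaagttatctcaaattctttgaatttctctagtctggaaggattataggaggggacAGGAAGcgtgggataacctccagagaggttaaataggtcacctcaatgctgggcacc
*Cxcl12*, chr6:117168285-117168534, plus strand: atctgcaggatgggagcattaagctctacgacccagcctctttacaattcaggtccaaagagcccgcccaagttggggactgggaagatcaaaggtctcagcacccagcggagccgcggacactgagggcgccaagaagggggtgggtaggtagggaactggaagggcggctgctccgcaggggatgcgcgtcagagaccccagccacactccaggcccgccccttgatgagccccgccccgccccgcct
*Cxcr4*, chr1:128592300-128592549, minus strand: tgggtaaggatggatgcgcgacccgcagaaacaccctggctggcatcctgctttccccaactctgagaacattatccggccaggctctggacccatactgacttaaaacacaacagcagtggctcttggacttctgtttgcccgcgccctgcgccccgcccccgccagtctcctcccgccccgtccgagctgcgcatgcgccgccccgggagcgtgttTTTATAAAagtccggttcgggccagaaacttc
*Ackr3*, chr1:90203730-90203979, plus strand: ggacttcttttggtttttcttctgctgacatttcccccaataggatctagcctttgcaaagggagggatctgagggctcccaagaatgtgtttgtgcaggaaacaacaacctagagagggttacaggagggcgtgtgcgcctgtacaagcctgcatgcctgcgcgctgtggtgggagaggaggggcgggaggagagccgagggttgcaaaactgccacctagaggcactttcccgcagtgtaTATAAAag
*Cxcl13*, chr5:95956689-95956938, plus strand: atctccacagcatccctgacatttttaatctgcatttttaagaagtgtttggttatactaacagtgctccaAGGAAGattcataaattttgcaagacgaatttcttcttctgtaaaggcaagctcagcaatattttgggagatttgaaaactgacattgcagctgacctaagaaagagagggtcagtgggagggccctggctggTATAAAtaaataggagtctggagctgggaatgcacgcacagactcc
*Cx3cl1* had an ETS match at -67 and a TATA match at -6 from the start, and *Ccl17* an ETS match at -57. The *Cxcl12* window held none of the 5 motifs. *Cxcr4* held TATA matches on both strands that overlap each other at -32 and -30, *Ackr3* one at -8, and *Cxcl13* one at -46 besides an ETS match at -179. The *Ackr4* window held a TATA match at -185. Of the 36 windows of these genes, 17 held the ETS letters, against 35.4% of all 32851 RefSeq windows. The SOX letters were in 3 windows (10.7% of all), the NF-kB letters in 5 (1.25%), the interferon response letters in 6 (8.56%) and the TATA letters in 11 (13.6%). The windows with SOX letters belonged to *Ccr3* and to *Ccl27a*, whose overlapping windows share the same match. The windows with NF-kB letters belonged to *Cxcl1*, *Cxcl2*, *Cxcl3*, *Cxcl10* and *Ccr3*. A match is a description of the letters and not a bound site.

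Of the 43 genes, 27 passed the filter on low counts and were tested with all 15506 genes that passed it: 19 ligands, 6 signaling receptors and 2 atypical receptors. Across the 3 time points 15 of the 27 differed between *Sox17*-*Erg* and control at an adjusted p under 0.05 at 1 or more of them (31% of all tested genes), 11 higher (16.7%) and 4 lower (14.6%), and 3 did so at every time point: *Cx3cl1* was higher, and *Cxcl12* and *Ackr4* were lower. At Day 3, 4 genes were higher (*Cx3cl1*, *Ccl2*, *Cx3cr1*, *Cxcl5*; 7.19% of all tested genes) and 2 were lower (*Cxcl12*, *Ackr4*; 5.13%). Day 7 had 4 higher (*Cx3cl1*, *Ccl2*, *Ccl17*, *Ccl25*; 9.48%) and 4 lower (*Cxcl12*, *Ackr4*, *Ccl6*, *Cxcl13*; 7.93%). By 4 weeks 8 were higher (*Cx3cl1*, *Cxcl16*, *Ackr3*, *Cxcr4*, *Ccl17*, *Cx3cr1*, *Ccr1*, *Cxcl14*; 11.9%) and 3 were lower (*Cxcl12*, *Ackr4*, *Cxcl13*; 11%). For Day 3 the median log2 fold change of the 27 genes was 0.38, beside 0.01 over all genes tested. The Day 7 median was -0.39 beside 0.01, and that of 4 weeks was -0.004 beside -0.014. Calls thus went both ways at each time point. With the replicate number as a block set within each time point, an alternative added after the data were seen, 6 were higher and 4 lower at Day 3, and 7 and 5 at Day 7. The 4-week counts were then 8 and 4. The shares of all tested genes are those of the fit as designed, and shares under the block or other alternatives are not given here. Genes gained with this block are named below. Several counts turned on single libraries. Without the second control library of Day 3, 1 gene was higher at Day 3, and 2 were without the first *Sox17*-*Erg* library of Day 3. Without the first library of either group of Day 3, 1 was lower. At Day 7, 2 were higher without either control library or without the first *Sox17*-*Erg* library, and 2 were lower without the latter. At 4 weeks, 5 were higher without the first control or the second *Sox17*-*Erg* library. In that comparison 1 was lower without the first *Sox17*-*Erg* library of 4 weeks, and 5 were without either *Sox17*-*Erg* library of Day 7.

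**Figure D1:**
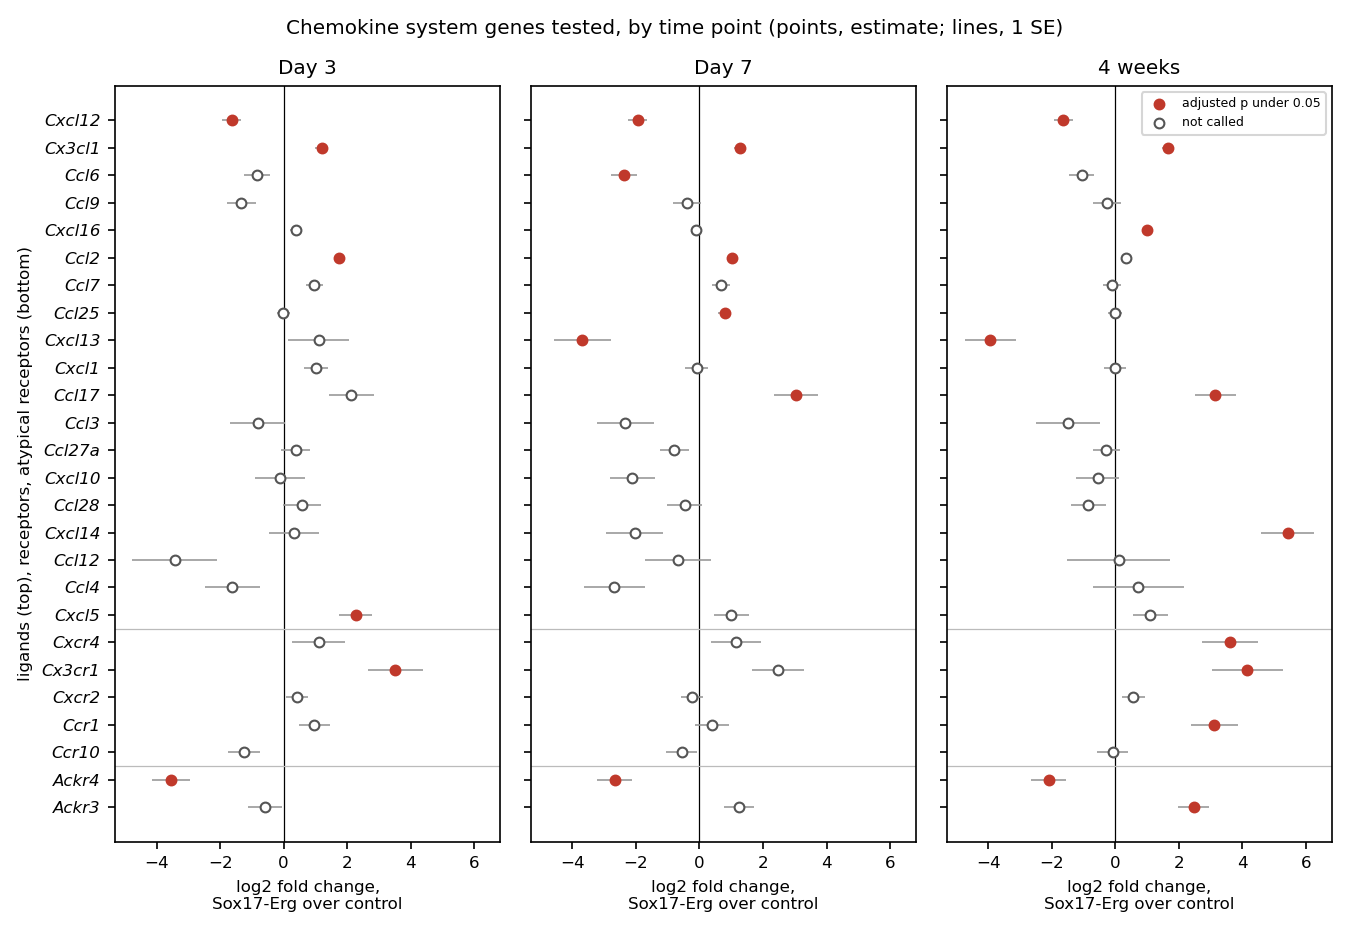
Log2 fold change of *Sox17*-*Erg* over control (x axis) for 26 of the 27 tested chemokine system genes (y axis) at Day 3, Day 7 and 4 weeks, with lines of 1 SE. Filled points passed an adjusted p of 0.05 (6 genes in the Day 3 panel, 8 in the Day 7 panel, 11 in the panel of 4 weeks), with *Cx3cl1* to the right and *Cxcl12* and *Ackr4* to the left of 0 at each.

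*Cx3cl1* encodes fractalkine, a membrane-anchored chemokine of activated endothelium that is also shed, and it was higher in *Sox17*-*Erg* samples at every time point while increasing with time in both groups. At Day 3 it was at 6.99 and 5.46 CPM in the control libraries and at 12.55 and 16.03 CPM in the *Sox17*-*Erg* libraries. The Day 7 levels were 36.02 and 30.4 CPM in control and 81.2 and 78.6 CPM in *Sox17*-*Erg*. Four-week control samples had 104 and 124 CPM, and *Sox17*-*Erg* samples 414 and 304 CPM. The *Sox17*-*Erg* libraries were above both control libraries of their time point throughout. Log2 fold changes were 1.20 ± 0.21 (SE; adjusted p = 0.0096), 1.27 ± 0.19 (adjusted p = 0.0028) and 1.66 ± 0.19 (adjusted p = 0.00044) from Day 3 to 4 weeks, with n = 2 per group. Without the second control library of Day 3, the Day 3 value was 0.998 with an adjusted p of 0.090. From Day 3 to 4 weeks it increased 18.2-fold in control and 25.1-fold in *Sox17*-*Erg* samples (log2 4.19 ± 0.22 and 4.65 ± 0.22, adjusted p = 3.4e-05 and 3.45e-05). The difference between these increases did not pass the test.

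*Cx3cr1*, the receptor for fractalkine on monocytes, macrophages and some lymphocytes, was also higher with *Sox17*-*Erg*, at far lower levels. Control libraries had 0.728 and 0.0462 CPM at Day 3, 0.538 and 0.723 CPM at Day 7, and 0.0251 and 0.0813 CPM at 4 weeks. In *Sox17*-*Erg* libraries it was at 6.17 and 3.19 CPM, 4.14 and 2.90 CPM, and 0.460 and 1.41 CPM. No *Sox17*-*Erg* library overlapped the controls of its time point. The log2 fold change was 3.51 ± 0.86 at Day 3 (adjusted p = 0.032) and 2.48 ± 0.81 at Day 7 (adjusted p = 0.067, or 0.025 by DESeq2 and 0.016 with the block within time points). At 4 weeks the counts were 3 in the control and 51 in the *Sox17*-*Erg* libraries, a ratio of 19.85 with an exact 95% interval for counting error of 6.42 to 99.4 (log2 4.16 ± 1.13 in the fit, adjusted p = 0.027). Both calls were lost in some other fits. The Day 3 adjusted p was 0.125 without the second control and 0.202 without the first *Sox17*-*Erg* library, and 0.063 with the 2 groups of Day 3 alone. The size moved too, with a log2 value of 6.52 without the first control, 2.64 without the second control and 2.93 without the first *Sox17*-*Erg* library. At 4 weeks it was 0.18 and 0.071 without the first and the second control library and 0.141 without the second *Sox17*-*Erg* library, with log2 values of 3.44, 4.98 and 3.13. It was 4.75 without the first *Sox17*-*Erg* library, which kept the call. Within *Sox17*-*Erg* samples the level at 4 weeks against Day 3 gave a log2 change of -2.32 ± 0.79 (adjusted p = 0.052), which 8 other settings called. The change in control, not called either, passed under 4 other settings.

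Leukocyte markers were measured beside *Cx3cr1*. All 16 were tested and 0 were called at Day 3, Day 7 or 4 weeks by edgeR, with 0, 1 and 0 at an unadjusted p under 0.05 and 0 by DESeq2. Their median log2 fold changes were -0.36, -1.40 and 0.32. Their summed level was 342 to 550 CPM in control and 360 to 377 CPM in *Sox17*-*Erg* libraries at Day 3, 1144 to 1587 and 366 to 563 CPM at Day 7, and 58.2 to 522 and 90.8 to 444 CPM at 4 weeks. The defining markers *Ptprc*, *Csf1r* and *Adgre1* were above 0 in every library, with the lowest values (0.226, 2.28 and 0.351 CPM) in the first control library of 4 weeks. In these bulk samples, fewer cells of a type and less RNA per cell cannot be told apart, and which cells carried the *Cx3cr1* transcript was not tested. Lymphocyte markers summed to at most 0.437 CPM.

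**Figure D2:**
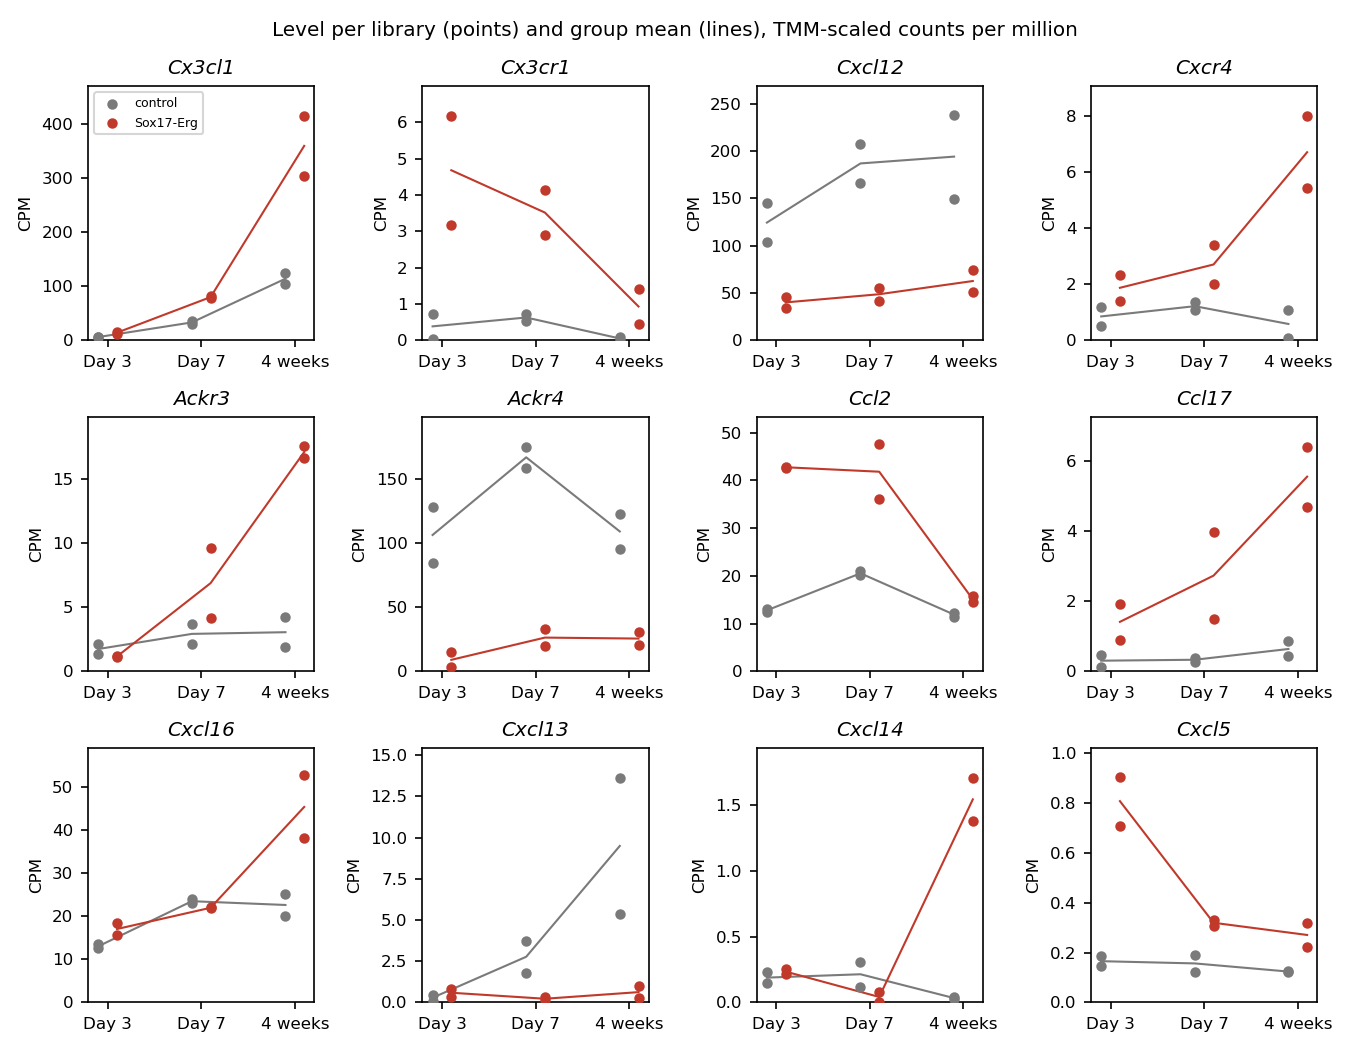
Level of 12 chemokine system genes in CPM (y axes, from 0) at Day 3, Day 7 and 4 weeks (x axes) in control (gray) and *Sox17*-*Erg* (red) libraries, with a point per library and lines through the group means of 2 libraries. *Cx3cl1*, *Ackr3* and *Ccl17* climb in the red series, *Cxcl12* and *Ackr4* stay below gray, and *Ccl2* starts above gray and nears it at 4 weeks, at 14.5 to 15.7 CPM against 11.5 to 12.3 CPM.

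*Cxcl12* encodes the ligand that retains hematopoietic cells and guides arterial growth, and it was 3.1-fold, 3.83-fold and 3.1-fold lower in *Sox17*-*Erg* samples from the earliest to the latest time point. Its level was 145 and 104 CPM in control against 45.9 and 34.3 CPM in *Sox17*-*Erg* at Day 3. At Day 7 it was 166 and 208 CPM against 55.8 and 41.8 CPM. The 4-week libraries had 239 and 150 CPM in control and 74.65 and 50.7 CPM in *Sox17*-*Erg*. All 6 *Sox17*-*Erg* libraries were below all 6 control libraries. The log2 fold changes were -1.63 ± 0.30 (adjusted p = 0.012), -1.94 ± 0.30 (adjusted p = 0.0031) and -1.63 ± 0.30 (adjusted p = 0.0045). The Day 3 adjusted p was 0.078 without the first control library, 0.060 without the first and 0.056 without the second *Sox17*-*Erg* library, with log2 values of -1.38, -1.90 and -1.44. No change with time in either group passed the test as designed. With no filter and with the block within time points, *Cxcl12* was called higher at 4 weeks than at Day 3 in both groups. Markers of other stromal cells moved between the same libraries. Of 6 mesothelial and epicardial markers 1 was lower at Day 3, and the Day 7 and 4-week comparisons had 4 and 6 lower. None of the 6 was at 0 in both libraries of a group. Their summed level was 295 to 1449 CPM in the control and 130 to 321 CPM in the *Sox17*-*Erg* libraries. Of 4 smooth muscle and pericyte markers 1, 4 and 4 were higher, at 31.1 to 170 against 164 to 406 CPM in sum, and none of them was at 0 in both libraries either. Their part and that of the fibroblast markers in the results for *Cxcl12* and *Ackr4* was not tested.

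*Cxcr4*, the signaling receptor for CXCL12, and *Ackr3*, the atypical receptor that removes it, were higher in *Sox17*-*Erg* samples at 4 weeks. *Cxcr4* was at 1.20 and 0.509 CPM in control and 2.33 and 1.42 CPM in *Sox17*-*Erg* at Day 3, and at 1.075 and 1.37 against 3.39 and 2.02 CPM at Day 7. The 4-week control libraries differed from each other, at 0.0752 and 1.10 CPM, and the *Sox17*-*Erg* libraries had 5.42 and 8 CPM. The *Sox17*-*Erg* libraries were higher than the controls at each time point, with log2 fold changes of 1.10 ± 0.83 (adjusted p = 0.413), 1.16 ± 0.80 (adjusted p = 0.354) and 3.61 ± 0.87 (adjusted p = 0.016). Without the second *Sox17*-*Erg* library of 4 weeks the last was 3.28 with an adjusted p of 0.064, and a fit of the 4-week groups alone gave 0.055. It was 2.61 without the first control library of 4 weeks and 6.40 without the second, both still called. The first of these, with *Cxcr4* at 0.0752 CPM, also had the lowest leukocyte marker sum of all libraries, 58.2 CPM, and the part of leukocytes in this result was not tested. *Ackr3* was at 2.11 and 1.39 CPM in control and 1.215 and 1.12 CPM in *Sox17*-*Erg* at Day 3. At Day 7 the values were 3.69 and 2.17 against 9.65 and 4.13 CPM, and at 4 weeks 4.21 and 1.91 against 16.7 and 17.6 CPM. The order was therefore control above *Sox17*-*Erg* at Day 3 and the reverse at the later time points. Log2 fold changes of *Ackr3* were -0.59 ± 0.53 (adjusted p = 0.494), 1.24 ± 0.47 (adjusted p = 0.104, or 0.033 with the block within time points) and 2.46 ± 0.48 (adjusted p = 0.0060), and the last held under all 20 alternatives, with 3.16 without the first control library of 4 weeks. The difference between the 4-week and the Day 3 effect was 3.06 ± 0.71 (adjusted p = 0.053; DESeq2 called it). Within *Sox17*-*Erg* samples *Ackr3* increased by 3.87 ± 0.53 from Day 3 to 4 weeks (adjusted p = 0.0015). Thus at 4 weeks the ligand was lower while both receptors were higher in the same libraries.

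*Ackr4* encodes the scavenger receptor for CCL19, CCL21 and CCL25, and it was lower in *Sox17*-*Erg* samples at every time point. In control it was at 84.3 and 128.5 CPM at Day 3, 159 and 175 CPM at Day 7, and 95.5 and 123 CPM at 4 weeks. The *Sox17*-*Erg* libraries had 3.19 and 14.9 CPM, 19.5 and 33.3 CPM, and 20.6 and 30.6 CPM. No *Sox17*-*Erg* library overlapped the controls. Log2 fold changes were -3.54 ± 0.59 (adjusted p = 0.0085), -2.67 ± 0.56 (adjusted p = 0.012) and -2.09 ± 0.55 (adjusted p = 0.024). The Day 3 value was -2.88 without the first and -5.06 without the second *Sox17*-*Erg* library, and the call held. The Day 7 adjusted p was 0.111 without the first *Sox17*-*Erg* library. At 4 weeks it was 0.056 and 0.084 without the first and the second control library, and 0.156 and 0.065 without the first and the second *Sox17*-*Erg* library, with log2 values of -1.84 to -2.43 in these fits. Exons of *Ackr4* overlap *Acad11* on the other strand. The kit keeps strand, but whether the quantification used it is not given in the sources used here.

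The ligands of ACKR4 were scarce. *Ccl25* was at 2.27 to 5.18 CPM in control and 3.12 to 4.56 CPM in *Sox17*-*Erg* libraries. At Day 7 it was at 2.27 and 2.29 CPM in control and 3.64 and 4.26 CPM in *Sox17*-*Erg* (log2 0.79 ± 0.21, adjusted p = 0.033), a call that 9 of 20 alternatives lost. These were the fit without a filter (adjusted p = 0.101), the 2 groups alone (0.148), and the fits without the first (0.11) or second (0.124) control library of Day 7, the first (0.0945) or second (0.142) *Sox17*-*Erg* library of Day 7, the second control library of 4 weeks (0.0535), the first *Sox17*-*Erg* library of Day 3 (0.0579) or that of 4 weeks (0.0546). *Ccl19* had 1 count over the control libraries of Day 3, 10 at Day 7 and 35 at 4 weeks, and 0 in all *Sox17*-*Erg* libraries. Against a floor of 3 counts over the group, it was at least 3.86-fold lower at Day 7 and at least 9.99-fold lower at 4 weeks, where the control libraries had 9 and 26 counts. It did not pass the filter on low counts and was not tested in the fit as designed. It was called lower at 4 weeks with no filter and in 5 fits without a single library, in which it passed the filter (the first control library of 4 weeks, or either *Sox17*-*Erg* library of Day 3 or of Day 7). Of its 31-base words 58.8% are shared with near-identical copies. *Ccl21a* had 13 counts in all, every one in control, and shares 80.6% of its words. Of the receptors for these ligands, *Ccr9* was at 0.0708 to 0.307 CPM and *Ccr7* had 2 counts.

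*Ccl2*, the main monocyte attractant, was higher in *Sox17*-*Erg* samples early, and the difference became smaller by 4 weeks. Control libraries had 13.1 and 12.5 CPM at Day 3, 20.1 and 21.0 CPM at Day 7, and 11.5 and 12.3 CPM at 4 weeks. The *Sox17*-*Erg* libraries had 42.9 and 42.6 CPM, 36.1 and 47.5 CPM, and 15.7 and 14.5 CPM. They were above control at each time point, by log2 1.74 ± 0.14 (3.34-fold, adjusted p = 0.00042), 1.02 ± 0.14 (adjusted p = 0.0015) and 0.35 ± 0.14 (adjusted p = 0.104). The 4-week effect was smaller than the Day 3 effect by 1.40 ± 0.19 on the log2 scale (adjusted p = 0.0079), and *Ccl2* was the only one of the 27 genes called for this difference by edgeR (3.21% of all genes). DESeq2 called *Ccl2*, *Ackr3*, *Cxcl13* and *Cxcl14*. Neighboring *Ccl7*, another monocyte attractant that starts 8258 bases after *Ccl2* ends on chromosome 11, was at 4.84 and 4.16 CPM in control and 8.40 and 9.26 CPM in *Sox17*-*Erg* at Day 3 (log2 0.97 ± 0.28, adjusted p = 0.051, or 0.026 by DESeq2 and 0.017 with the block within time points). It was called at Day 3 under 8 other settings and at Day 7 under 1, that block (adjusted p = 0.043). At 4 weeks it was at 1.95 and 1.51 CPM in control and 1.88 and 1.37 CPM in *Sox17*-*Erg*. *Ccl12* and *Ccl8*, which lie next to them, had 111 and 36 counts over all libraries. For *Ccl12* 40 counts at Day 3 were in control and 3 in *Sox17*-*Erg* libraries, a ratio of 0.0857 (exact 95% interval for counting error 0.017 to 0.269; adjusted p = 0.122 in the fit, with a call under 3 other settings). *Ccr2*, the receptor of CCL2, CCL7 and CCL12, had 47 counts in all and at most 8 in a library.

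*Ccl17*, which attracts T cells through CCR4, lies 28025 bases from *Cx3cl1* and was higher with *Sox17*-*Erg* as well. It was at 0.473 and 0.139 CPM in control and 1.92 and 0.905 CPM in *Sox17*-*Erg* at Day 3. At Day 7 the libraries had 0.384 and 0.281 against 3.97 and 1.49 CPM, and at 4 weeks 0.426 and 0.854 against 6.41 and 4.70 CPM. The *Sox17*-*Erg* libraries were above the controls throughout. Log2 fold changes were 2.14 ± 0.71 (adjusted p = 0.079, or 0.032 by DESeq2 and 0.025 with the block within time points), 3.03 ± 0.69 (adjusted p = 0.017) and 3.14 ± 0.65 (adjusted p = 0.0081). The Day 7 adjusted p was 0.066 and 0.106 without the first and the second control library, 0.137 (log2 2.15) without the first *Sox17*-*Erg* library and 0.056 with these 2 groups alone. At 4 weeks it was 0.070 without the first control library. *Ccr4* had 14 counts in all.

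*Cxcl16* encodes a second membrane-anchored chemokine, which also serves as a scavenger receptor, and it differed between treatments at 4 weeks. Levels were 13.5 and 12.5 CPM in control and 18.3 and 15.7 CPM in *Sox17*-*Erg* at Day 3, and 23.0 and 23.9 against 22.1 and 21.8 CPM at Day 7. At 4 weeks control libraries had 19.95 and 25.25 CPM and *Sox17*-*Erg* libraries 52.6 and 38.0 CPM (log2 1.01 ± 0.17, adjusted p = 0.0034). The change from Day 7 to 4 weeks was 1.05 ± 0.17 in *Sox17*-*Erg* (adjusted p = 0.024) and -0.06 ± 0.17 in control (adjusted p = 0.926), and the difference between them, 1.10 ± 0.24, had an adjusted p of 0.258. Exons of *Cxcl16* overlap *Zmynd15* on the other strand, and those of *Ccl25* overlap *Elavl1*. *Cxcr6*, the receptor of CXCL16, had 54 counts over all libraries, of which 18 were in *Sox17*-*Erg* and 4 in control libraries of Day 7.

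*Cxcl13*, the B cell attractant of lymphoid stroma, appeared with time in control samples. It was at 0.109 and 0.462 CPM at Day 3, 3.73 and 1.81 CPM at Day 7, and 13.6 and 5.37 CPM at 4 weeks in control libraries. *Sox17*-*Erg* libraries had 0.354 and 0.819 CPM, 0.138 and 0.308 CPM, and 0.248 and 1 CPM. The groups overlapped at Day 3 and were apart afterwards. The increase from Day 3 to 4 weeks in control was 5.10 ± 0.90 on the log2 scale (adjusted p = 0.0045), and that in *Sox17*-*Erg* samples was 0.06 ± 0.86 (adjusted p = 0.967). The difference between the 4-week and the Day 3 effect was -5.03 ± 1.24 (adjusted p = 0.067). The log2 fold change of *Sox17*-*Erg* over control was -3.69 ± 0.90 at Day 7 (adjusted p = 0.023) and -3.93 ± 0.82 at 4 weeks (adjusted p = 0.0084). The Day 7 adjusted p was 0.080 (log2 -3.10) without the first control library, and 0.184 and 0.051 (log2 -4.33) without the first and the second *Sox17*-*Erg* library. That of 4 weeks was 0.056 (log2 -3.10) without the first control and 0.064 (log2 -3.25) without the first *Sox17*-*Erg* library, and the log2 value was -5.27 without the second. *Cxcr5*, its receptor, had 23 counts.

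*Cxcl14*, a chemokine of epithelia and stroma, was near 0 until 4 weeks. All libraries of Day 3 and Day 7 had 0 to 8 counts, the control libraries of 4 weeks had 1 count each, and the *Sox17*-*Erg* libraries of 4 weeks had 39 and 46. The 4-week ratio was 49.6, with an exact 95% interval for counting error of 13.3 to 416 (adjusted p = 0.0021 in the fit). Between Day 3 and 4 weeks it increased by 2.70 ± 0.69 on the log2 scale in *Sox17*-*Erg* samples (adjusted p = 0.017). The effect at 4 weeks minus that at Day 3 was 5.10 ± 1.18 (adjusted p = 0.053).

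The neutrophil attractants *Cxcl5* and *Cxcl1* and their receptor *Cxcr2* were low. *Cxcl5* had 4 and 4 counts in control and 14 and 21 in *Sox17*-*Erg* at Day 3, or 0.146 and 0.185 against 0.709 and 0.905 CPM, with no overlap (log2 2.27 ± 0.52, adjusted p = 0.026). Its adjusted p was 0.0908 with no filter, 0.16 and 0.147 without the first and the second control library of Day 3, 0.141 and 0.101 without the first and the second *Sox17*-*Erg* library, and 0.0515 without the second control library of 4 weeks. At 4 weeks *Cxcl5* was at 0.125 and 0.122 CPM in control and 0.319 and 0.222 CPM in *Sox17*-*Erg*. *Cxcl1* was at 1.13 to 2.46 CPM in control and 1.45 to 2.59 CPM in *Sox17*-*Erg* libraries, and *Cxcr2* at 0.652 to 2.33 and 1.06 to 2.83 CPM. Neither was called between treatments. *Cxcr2* was lower at 4 weeks than at Day 3 in both groups, by -1.36 ± 0.36 in control (adjusted p = 0.024) and -1.21 ± 0.35 in *Sox17*-*Erg* samples (adjusted p = 0.030).

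Chemokines of macrophages were next. *Ccl6*, *Ccl9*, *Ccl3* and *Ccl4* lie in 1 cluster on chromosome 11, and several of them signal through CCR1. *Ccl6* was at 25.03 and 17.3 CPM in control and 10.5 and 13.1 CPM in *Sox17*-*Erg* at Day 3. The Day 7 libraries had 104 and 111 against 13.1 and 28.25 CPM, and those of 4 weeks 63.6 and 110.5 against 31.5 and 52.1 CPM. Control libraries were higher at each time point. The log2 fold changes were -0.84 ± 0.41 (adjusted p = 0.2), -2.38 ± 0.41 (adjusted p = 0.0051) and -1.06 ± 0.39 (adjusted p = 0.085, or 0.030 by DESeq2 and 0.021 with the block within time points). The Day 7 value was -3.07 without the second *Sox17*-*Erg* library of Day 7. The 4-week difference was called under 6 other settings and that of Day 3 under 1, no filter. *Ccl9* was at 57.9 and 75.05 CPM in control and 15.1 and 37.6 CPM in *Sox17*-*Erg* at Day 3 (log2 -1.33 ± 0.45, adjusted p = 0.085, or 0.015 by DESeq2), and at 12.1 and 26.9 against 13.8 and 18.6 CPM at 4 weeks. *Ccl3* was at 3.19 and 6.23 CPM in control and 0.469 and 1.45 CPM in *Sox17*-*Erg* at Day 7 (adjusted p = 0.106). *Ccl4* was at 0.422 and 1.01 against 0.0551 and 0.176 CPM there (adjusted p = 0.086). None of these 3 was called between treatments in the edgeR fit as designed, while DESeq2 called *Ccl9* at Day 3 and *Ccl3* at Day 7. In other edgeR fits *Ccl9* passed at Day 3 with no filter (adjusted p = 0.00016), with a block on replicate numbers (0.016, or 0.011 when set within time points) and without the second *Sox17*-*Erg* library of Day 3 (0.036). *Ccl3* passed at Day 7 with no filter, with the block within time points and without either control library of 4 weeks, and at 4 weeks without the first control library.

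The leukocyte marker sum was highest in the control libraries of Day 7, and so was *Ccl3*. The group mean of *Ccl6* was also highest there, at 107 CPM. *Ccl9* was instead highest in control at Day 3, at 57.9 and 75.05 CPM against 49.7 and 51.2 CPM at Day 7. *Ccl4* was at 1.13 and 0.555 CPM in control at Day 3 and 0.422 and 1.01 CPM at Day 7. The first control library of 4 weeks had the lowest marker sum, 58.2 CPM, and *Ccl3* at 0.125 CPM. Its *Ccl9* was at 12.1 CPM, the lowest of all libraries, and its *Ccl4* at 0.0251 CPM. Its *Ccl6* was at 63.6 CPM, above every control and *Sox17*-*Erg* library of Day 3. The part of leukocytes in these differences was not tested. *Ccr1* moved otherwise. It was at 1.71 and 1.02 CPM in control and 3.24 and 2.15 CPM in *Sox17*-*Erg* at Day 3, at 0.576 and 0.804 against 1.30 and 0.483 CPM at Day 7, and at 0.0501 and 0.0407 against 0.354 and 0.519 CPM at 4 weeks. At 4 weeks that was 3 counts against 24, a ratio of 9.34 (exact 95% interval for counting error 2.84 to 48.5; adjusted p = 0.016 in the fit). The adjusted p was 0.096 and 0.068 without the first and the second control library and 0.070 without the second *Sox17*-*Erg* library.

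**Figure D3:**
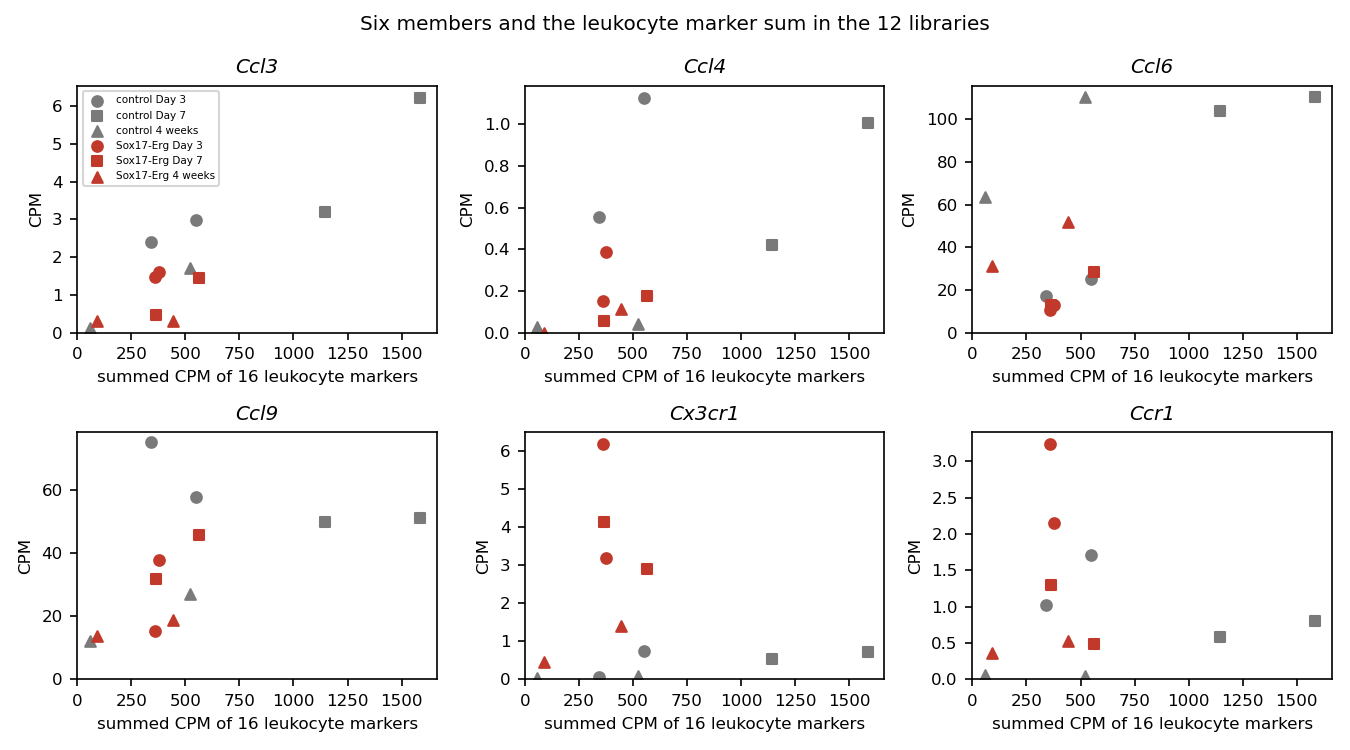
Level of 6 genes in CPM (y axes) against the summed CPM of 16 leukocyte markers (x axes) in the 12 libraries, colored by treatment (gray control, red *Sox17*-*Erg*) and shaped by time point. The 2 control libraries of Day 7 have the largest marker sums, 1144 and 1587 CPM, and *Cx3cr1* is between 2.90 and 6.17 CPM in the *Sox17*-*Erg* libraries of Day 3 and Day 7, which have sums of 360 to 563 CPM.

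Of the remaining tested genes, *Cxcl10*, *Ccl27a*, *Ccl28* and *Ccr10* were not called in any comparison as designed. *Cxcl10* was called lower at Day 7 with no filter and without the second control library of Day 7, and higher in control at 4 weeks than at Day 3 without either control library of Day 7. *Cxcl10*, an interferon-induced attractant of T cells, was at 0.291 to 2.92 CPM in control and 0.253 to 0.926 CPM in *Sox17*-*Erg* libraries, and its Day 7 log2 fold change of -2.11 ± 0.71 had an adjusted p of 0.072. *Ccl27a* and *Ccl28* share the receptor CCR10, whose gene was at 0.304 to 1.43 CPM, and *Ccl27a* shares 57.0% of its words with copies, so its value of 0.662 to 2.56 CPM is uncertain. Exons of *Ccl27a* also overlap *Il11ra1*, and those of *Cxcl10* overlap *Art3*, on the other strand. The 16 untested genes had 10 to 58 counts in all. Among them *Ackr1*, the atypical receptor of venular endothelium and red cells, had 0 counts in both control and 2 and 0 in the *Sox17*-*Erg* libraries of Day 3, 1 and 3 against 2 and 7 at Day 7, and 2 and 4 against 7 and 7 at 4 weeks. Its exact permutation p over all 12 libraries was 0.11, and 23.0% of its words are shared with *Cadm3*, which it overlaps. *Ccl5*, *Cxcl9*, *Cxcl2*, *Cxcl3*, *Ccl20*, *Cxcl17* and *Ccr3* were at 0.462 CPM or less in every library.

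Per kilobase of exon, the order of the levels depended on the group. In control the highest group means were those of *Ccl9* (21.8 CPM per kb), *Ackr4* (19.8) and *Cxcl12* (15.2) at Day 3, *Ccl6* (59.75), *Ackr4* (31.04) and *Cxcl12* (22.85) at Day 7, and *Ccl6* (48.5), *Cx3cl1* (28.97) and *Cxcl12* (23.7) at 4 weeks. In *Sox17*-*Erg* samples *Ccl2* led at Day 3 (37.6) and Day 7 (36.8), ahead of *Ccl7* (11.03) and *Cx3cl1* (20.3) in turn, and *Cx3cl1* led at 4 weeks (91.3), ahead of *Ccl6* (23.3). Neighbors in these orders were not tested against each other. No signaling receptor had a group mean above that of *Cxcr4* in *Sox17*-*Erg* samples of 4 weeks, 3.71 CPM per kb. The make-up of the chemokine counts differed between treatments. *Cxcl12*, *Ackr4* and *Ccl6* together took 64.1% to 75.4% of them in control and 18.98% to 31.65% in *Sox17*-*Erg* libraries. These genes were picked as lower with *Sox17*-*Erg*, and a larger share of one gene lowers those of others. The shares therefore restate the differences above. *Cx3cl1* took 1.43% and 1.86% in control and 6.66% and 7.58% in *Sox17*-*Erg* libraries at Day 3, and 17.95% and 20.7% against 62.0% and 54.5% at 4 weeks.

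**Figure D4:**
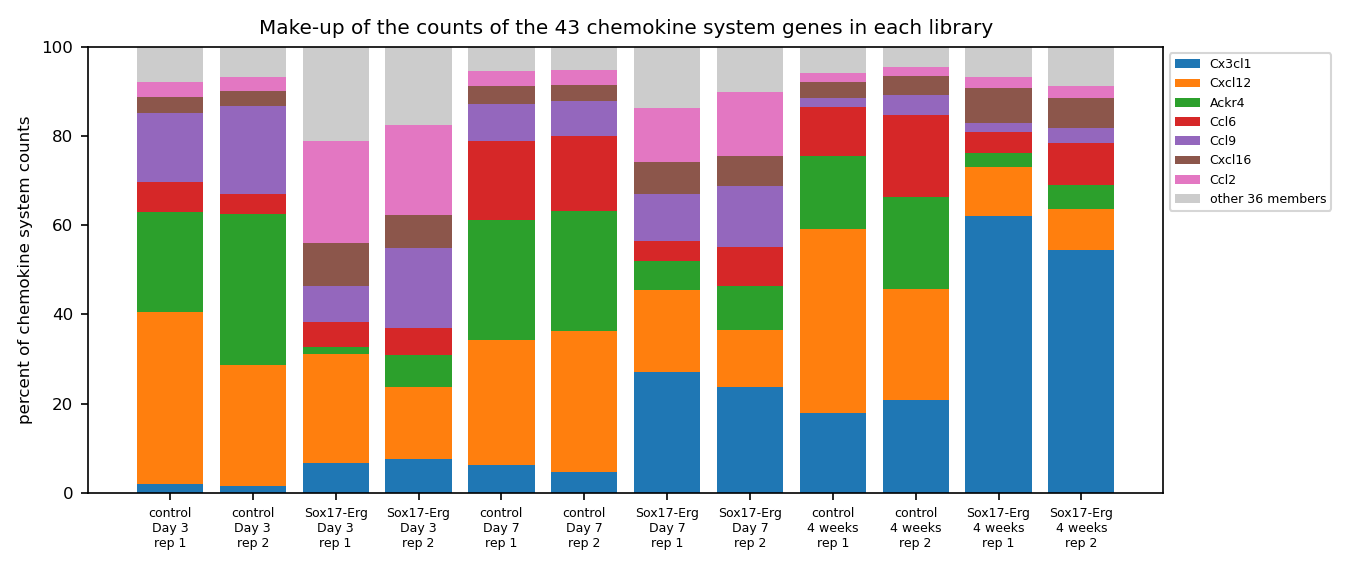
Share of the counts of the 43 genes (y axis, percent) taken by 7 of them and by the other 36 in each of the 12 libraries (x axis), without correction for gene length. *Cx3cl1* widens to 54.5% and 62.0% in the *Sox17*-*Erg* libraries of 4 weeks, and *Cxcl12*, *Ackr4* and *Ccl6* fill 64.1% or more of each control library.

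Over the 3 time points, an exact two-sided permutation of labels within time points was made for 20 genes, those called in some comparison together with *Ackr1*. As the genes were chosen in part on the same libraries, its p-values are a description and no separate support. The permutation was not run for all tested genes, so a count of genes reaching a given p has no share of all genes beside it. The smallest p it allows, 0.0093, was reached by 9 of them: *Cxcl12*, *Cx3cl1*, *Ackr4*, *Ccl6*, *Ccl2*, *Cxcr4*, *Ccl17*, *Cx3cr1* and *Cxcl5*. Their mean differences were 1.37 (*Cx3cl1*), 1.03 (*Ccl2*), 2.06 (*Cxcr4*), 2.57 (*Ccl17*), 3.01 (*Cx3cr1*) and 1.15 (*Cxcl5*) on the log2 scale, and -1.73 (*Cxcl12*), -2.90 (*Ackr4*) and -1.45 (*Ccl6*). Each gene had the same order of the groups at all 3 time points. Reaching that p requires the treatments to be apart in the same direction at each of them, so this order is no added result.

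With time, 4 of the 27 genes were higher in control at 4 weeks than at Day 3 (*Cx3cl1*, *Ccl6*, *Cxcl16*, *Cxcl13*; 13.9% of all genes) and 5 were lower (*Ccl9*, *Ccl7*, *Cxcr2*, *Ccr1*, *Ccl4*; 12.6%). In *Sox17*-*Erg* samples 6 were higher (*Cx3cl1*, *Ccl6*, *Cxcl16*, *Ackr3*, *Ccl17*, *Cxcl14*; 15.1%) and 5 were lower (*Ccl2*, *Ccl7*, *Cxcr2*, *Ccr1*, *Cxcl5*; 15.6%). *Ccl7* changed by -1.37 ± 0.29 (adjusted p = 0.0092) in control and -2.44 ± 0.29 (adjusted p = 0.00090) in *Sox17*-*Erg* samples, and *Ccr1* by -4.75 ± 0.70 (adjusted p = 0.0020) and -2.61 ± 0.55 (adjusted p = 0.0080). *Ccl2* in *Sox17*-*Erg* samples changed by -1.50 ± 0.14 (adjusted p = 0.00035). From Day 3 to Day 7, 4 were higher in control (*Cx3cl1*, *Ccl6*, *Cxcl16*, *Ccl2*; 4.7% of all genes) and 1 was lower (*Ccl25*; 4.06%). In *Sox17*-*Erg* samples 2 were higher (*Cx3cl1*, *Ackr3*; 2.04%) and 0 were lower (1.38%; 4 at an unadjusted p under 0.05, 0 by DESeq2). From Day 7 to 4 weeks, 1 was higher in control (*Cx3cl1*; 0.174%) and 0 were lower by edgeR (0.219%; 10 at an unadjusted p under 0.05, 5 by DESeq2). In *Sox17*-*Erg* samples 3 were higher (*Cx3cl1*, *Cxcl16*, *Cxcl14*; 1.15%) and 2 were lower (*Ccl2*, *Ccl7*; 0.671%). For the effect at Day 7 against Day 3 and at 4 weeks against Day 7, 0 genes were called by edgeR (0.0838% and 0.0387% of all genes), with 5 and 6 at an unadjusted p under 0.05. DESeq2 called *Cxcl13* for the first and *Cxcl16* and *Cxcl14* for the second. The counts from Day 3 to 4 weeks depended on single libraries. Without the first control library of Day 3, 1 was lower in control, and 2 were without the first of 4 weeks. There, 2 were higher without the second of Day 3. In *Sox17*-*Erg* samples 3 were higher without the first library of Day 3 or the second of 4 weeks. Further, 2 were lower without the first library of Day 3 or of 4 weeks, and 3 without the second of either. The genes lost in these fits were *Cxcl16*, *Ccl6*, *Ccl4*, *Ccl7*, *Ccl9* and *Cxcr2* in control, and *Ccl17*, *Ccl6*, *Cxcl14*, *Ccr1*, *Cxcl5* and *Cxcr2* in *Sox17*-*Erg* samples. *Cxcl5* was lost in each of the 12 fits without a single library, control libraries and Day 7 included. DESeq2, the fits with no filter, with a minimum count of 50 and with only the groups compared, and the block within time points did not call it either. Other settings called more genes over this interval. *Ackr4* was called higher in *Sox17*-*Erg* samples by DESeq2, with no filter and with the replicate block, also within time points (1.49 ± 0.56, adjusted p = 0.073 as designed). *Cxcr4* was called higher and *Ccl3* lower there with no filter and with only the groups compared. The block within time points did not call *Ccl17*. In control *Ccl12* was called lower by DESeq2, with no filter and with either block.

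Genes that act around the chemokine system were taken from lists. Their counts stand beside the shares of all tested genes given above, 7.19% higher and 5.13% lower for Day 3, 9.48% and 7.93% for Day 7, and 11.9% and 11% for 4 weeks. Of 10 relatives outside the naming rule 7 were tested. *Rarres2*, the precursor of the attractant chemerin, was at 48.4 and 52.5 CPM in control and 5.96 and 9.93 CPM in *Sox17*-*Erg* at Day 7 (log2 -2.68 ± 0.36, adjusted p = 0.0016), and at 135 and 91.0 against 30.9 and 38.1 CPM at 4 weeks (-1.71 ± 0.34, adjusted p = 0.0070). *Mif*, a cytokine that can bind CXCR4, was higher by 0.56 ± 0.13 at Day 3 (adjusted p = 0.030) and 0.69 ± 0.13 at Day 7 (adjusted p = 0.0083). *Gpr1*, a chemerin receptor, was lower at 4 weeks (-2.47). Among 24 tested genes of receptor signaling, 6 rose and 3 fell at Day 3, and the Day 7 comparison had 5 and 3. The same numbers for 4 weeks were 6 and 3, and the medians were -0.01, -0.05 and 0.09. The regulators of G protein signaling *Rgs16* (log2 5.57, 5.61 and 5.92 at the 3 time points), *Rgs4* (2.24, 4.58 and 6.08) and *Rgs5* (3.02, 2.99 and 2.72, also a pericyte gene) were higher at each. *Arrb1*, which encodes an arrestin, was lower at each (-1.59, -2.15 and -1.90). *Gnai1*, an inhibitory G protein subunit, was lower at Day 7 (-1.24) and 4 weeks (-1.98).

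Inducers of chemokines were counted in the same way. Of 16 tested genes of NF-kB and its receptors, 2 were lower at Day 3, 3 at Day 7, and 3 lower and 2 higher at 4 weeks. *Il1r1*, the interleukin 1 receptor, was lower at each time point (log2 -0.79, -0.94 and -1.06), as was *Birc3* (-0.87, -0.84 and -1.18). *Rela* (0.39) and *Nfkbiz* (0.78) were higher at 4 weeks. Of 11 tested interferon inducers 0 were called at Day 3 by edgeR (3 at an unadjusted p under 0.05, 1 by DESeq2), 5 were lower at Day 7 and 6 at 4 weeks. *Irf8*, a transcription factor of myeloid cells, was lower at both (-1.93 and -2.20). Of 19 genes of retention and processing, 1 was lower at Day 3, 5 were higher and 3 lower at Day 7, and 7 were higher and 2 lower at 4 weeks. *Ndst1*, which modifies the heparan sulfate that holds chemokines, was higher at Day 7 (0.71) and 4 weeks (0.68), and *Sdc1*, a heparan sulfate proteoglycan, at 4 weeks (2.32). *Mmp2*, a protease that cleaves CXCL12, was lower at each time point (-0.77, -1.49 and -1.45). *Dpp4*, which trims the amino end of CXCL12, was higher at Day 7 (2.57 ± 0.62, adjusted p = 0.021) at 11.2 and 6.43 CPM in control against 35.8 and 69.25 CPM in *Sox17*-*Erg*.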

How the data were processed

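Bulk RNAseq of 12 libraries was used. Per the submitters' processing notes reads were demultiplexed with bcl2fastq 2.20.0, mm10 was the build, and Salmon and DESeq2 were used. The authors deposited estimated counts per gene, rounded to whole numbers and not scaled for library size, and the paper describes trimming of high GC content with BBDuk. The version of Salmon and the annotation are not given in the sources used here. Symbols and positions came from GENCODE M21 (GRCm38) and promoters from RefSeq (GRCm38.p6).

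Differences were tested with the quasi-likelihood F test of edgeR 4.0.16 under R 4.3.3 (TMM, filterByExpr with a minimum count of 10, 1 mean per group, 6 residual degrees of freedom), with Benjamini-Hochberg adjustment over 15506 genes and calls at an adjusted p under 0.05. The fit was tested on simulated data. DESeq2 1.42.0 and other settings were alternatives. Low counts were given as ratios with exact 95% intervals or against a floor of 3 counts, and both cover counting error only. Permutation tests used log2 CPM with a prior count of 2.

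Genes were described in full when called in any comparison, or when among *Cxcl12*, *Cxcr4*, *Ackr3*, *Ackr1*, *Ackr4*, *Ccl2* and *Cx3cl1*. The members and lists were chosen with earlier results of these data known. Gene counts do not separate sequence shared by near-identical copies. The values of 1 tested receptor and 1 list gene are not reported here.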

Additional observations from a re-analysis of the deposited data

Results flagged for a closer look

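The effect of *Sox17*-*Erg* on *Ccl2* differed between time points by an interaction test across all genes. The effect at 4 weeks minus that at Day 3 was -1.40 on the log2 scale, with an adjusted p of 0.0079 (edgeR). It kept its sign and passed the threshold under all 19 alternatives, from -1.45 to -1.30, with adjusted p of 5.18e-06 to 0.0475. Groups of 2 libraries are too small to be tested for single libraries that stand apart.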

How the results depend on the processing

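Of 25 called fold changes between treatments, 11 passed the threshold under every alternative in which they were tested (*Cxcl14* at 4 weeks was not tested with a minimum count of 50). Over 496 comparisons with alternatives, 451 kept direction and side, 45 no longer passed and 0 reversed. Among the genes described in full, 32 fold changes were uncalled, and of their 626 comparisons 36 newly passed and 12 reversed. Newly passed calls of other genes stand beside them above. With 2 libraries per group, single libraries and low counts limit the calls. Counts of genes called are given below, without the share of all genes called under the same setting.

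With a threshold of 0.01 on the adjusted p, Day 3 had 2 genes higher and 1 lower, Day 7 had 2 of each, and 4 weeks had 5 higher. Between Day 3 and 4 weeks, 2 were then lower in control, and 3 were higher and 3 lower in *Sox17*-*Erg* samples. With no filter, 5 were lower at Day 3, 5 at 4 weeks, and 8 in control between Day 3 and 4 weeks (the cause was not tested). Leaving out single libraries, the counts higher and lower ranged over 1 to 5 and 1 to 2 (Day 3), 2 to 5 and 2 to 5 (Day 7), and 5 to 8 and 1 to 5 (4 weeks). For 4 weeks against Day 3 they were 2 to 5 and 1 to 5 in control, and 3 to 7 and 2 to 5 in *Sox17*-*Erg* samples.

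The design had no block. The study's methods say that control and experimental replicates were run in parallel, without tying them to the numbers, so both fits are given. Deviations of same-numbered libraries correlated at 0.186, 0.301 and 0.171 within time points, at 0.139 to 0.219 between groups of Day 3 and Day 7, and at -0.14 to -0.006 between groups of 4 weeks and earlier ones. With the number as a replicate block, 3 genes were lower at Day 3 (*Ccl9* gained) and 5 higher at Day 7 (*Ackr3* gained). A replicate block set separately for each time point (added after the data were seen) gave 4 and 7, adding *Ccl12*, *Ccl7* and *Cx3cr1*, and 8 were lower in control between Day 3 and 4 weeks. It also called *Ccl17* and *Ccl7* higher at Day 3 and *Ccl3* lower at Day 7. Both blocks added *Ccl6* to the genes lower at 4 weeks. With the numbers crossed at 4 weeks, also chosen after seeing the data, 6 were higher at Day 3 and 5 at Day 7.

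The reversed log2 values, all of uncalled fold changes, were as follows (the cause was not tested). *Ccl25* at 4 weeks was 0.001 with DESeq2 size factors and 0.018 with only the groups compared, and -0.118 to 0.062 without single libraries. Without single libraries, *Ccl25* at Day 3 ranged from -0.19 to 0.147 and *Ccl9* at 4 weeks from -0.731 to 0.427. *Ccl7* at 4 weeks ranged from -0.35 to 0.11 and *Ccl4* at 4 weeks from -2.958 to 1.677. *Cxcr2* at Day 7 ranged from -0.537 to 0.11 and *Ccr1* at Day 7 from -0.506 to 0.867.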
